A study of Mus musculus with 32 samples.

Results

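The comparison described here sets 4 RNA-seq libraries of CD4+ T cells labelled knockout (KO) for Nr4a1 against 4 labelled wild type (WT), all from cells activated in the presence of a compound coded CompA. The 8 libraries were chosen by the genotype and agent in their labels, out of 32 in the series, and every gene in the count files was considered. All mice were C57BL/6J, and the CD4+ T cells came from spleen together with inguinal and axillary lymph nodes. Both groups received antibodies to CD3 and CD28 for 12 h and CompA at 10 µg/ml. Their labels differ in genotype (WT or Nur77KO) and in library number. The numbers of WT and KO libraries fall in separate runs, so number and genotype cannot be told apart. The other 3 conditions, each with 4 libraries per genotype, were unstimulated cells, cells stimulated without an inhibitor, and stimulated cells given XCT790, which lowers the activity of the estrogen-related receptor alpha (ERR-alpha), at 10 µg/ml. The vehicle, the age of the mice and the way the Nr4a1 allele was made are unstated in the labels used here. Separate animals are nowhere named as the origin of a group's 4 libraries, so p-values measure only how far these samples spread, and that spread may be technical.

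Nur77 is an orphan nuclear receptor that binds DNA as a transcription factor and is made within hours of T cell receptor engagement, together with its relatives Nor-1 (Nr4a3) and Nurr1 (Nr4a2). In T cells the family is known for limiting activation and metabolism and for roles in regulatory T cells and in dysfunctional T cells. Antibodies to CD3 and CD28 replace antigen and costimulation and drive cytokine production, growth and metabolic reprogramming in CD4+ cells. With CompA in both arms, the comparison asks how the genotypes differ in that state.

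The 8 libraries held 16.02 to 20.39 megacounts of gene counts each. The T cell genes Cd3d, Cd3e, Cd3g, Cd4, Cd28, Lck, Cd2 and Cd5 were all detected, and none of the 8 passed the test. Of the 16 genes in the list of the receptor, its co-receptors and its signalling, 1 rose (6.25%, against 5.82% of all genes). It was Themis, a signalling protein of developing T cells (log2 difference 0.65). Cd4 averaged 505 CPM in WT cells and 460 CPM in the KO-labelled cells, where CPM is the usual unit of counts relative to the library total, here adjusted between libraries with TMM factors. Markers of other cells were summed per library. The summed B cell markers were 73.1 to 93.7 CPM in WT and 50.6, 391, 91.6 and 82.6 CPM in KO-labelled replicates 1 to 4, and no B cell marker was at 0 in a whole group. KO-labelled replicate 2 also carried the highest NK and CD8 T cell sum (171 CPM) and the highest erythroid sum (161 CPM). The 26 myeloid markers summed to 17.8 to 25.4 CPM in WT and 29.9 to 63.1 CPM in KO-labelled libraries, without overlap (exact permutation test, two-sided, p = 0.0286, the smallest that 4 against 4 allows; 0.1427 adjusted over 5 marker lists). The part of these cells in the genotype differences was not tested.

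Nr4a1 itself (chr15:101253902-101274795, GRCm38) was not lower in the KO-labelled cells. It stood at 342, 329, 352 and 395 CPM in the WT libraries and at 786, 520, 416 and 470 CPM in the KO-labelled libraries. The groups did not overlap, the KO-labelled values being the higher, and the difference did not pass the test (log2 difference 0.63, SE 0.23, adjusted p = 0.09; edgeR quasi-likelihood test, Benjamini-Hochberg adjusted over 12332 genes). A count summed along the gene cannot tell whether the transcript still encodes the full receptor, so the groups are called KO-labelled throughout. Nr4a2 (log2 difference 0.19, adjusted p = 0.72) and Nr4a3 (-0.17, adjusted p = 0.58) did not pass either. Esrra, which encodes ERR-alpha, was at 35.0 ± 2.32 CPM in WT against 34.8 ± 4.83 CPM in KO-labelled cells (SD, n = 4).

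Of the 12332 genes tested, 950 (7.70%) were called at an adjusted p under 0.05, and most of them were higher in KO-labelled cells. The 718 genes that rose were 5.82% of those tested and the 232 that fell were 1.88%. Changes of more than 2-fold numbered 444 upward and 28 downward, and the median log2 difference was 1.20 among genes that rose and -0.38 among genes that fell. The upward share of the calls was 75.6%, against 87.4% when libraries were scaled by their totals and 65.0% with DESeq2. Without regard to the test, 1031 genes (8.36%) had all 4 KO-labelled libraries above all WT libraries, and 856 (6.94%) had all below. The number of calls fell to 549 without WT replicate 3, 586 without WT replicate 1, 608 without WT replicate 4 and 618 without KO replicate 3. The 232 lower calls varied more, falling to 95, 96, 108 and 90 in the same order, to 137 and 138 without KO replicates 2 and 4, and to 134 with library totals.

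**Figure D1:**
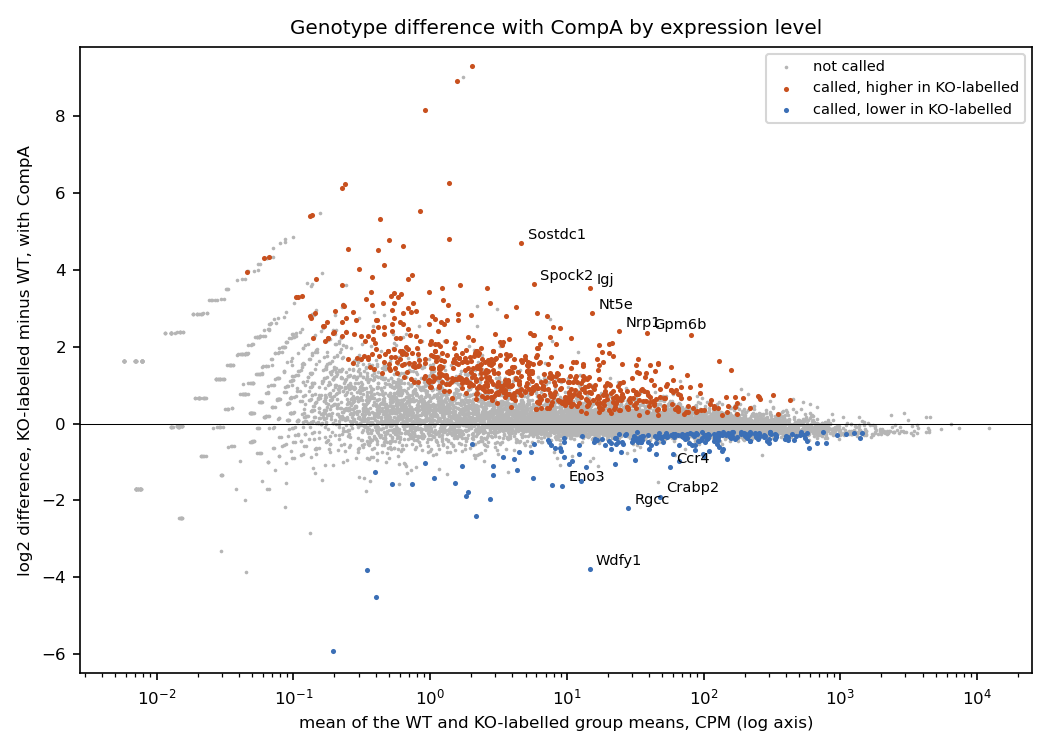
Log2 difference between KO-labelled and WT cells with CompA (vertical axis) against the mean level in the 8 libraries (horizontal axis, CPM, log scale), 1 point per gene tested. Orange points are the 718 genes higher and blue points the 232 genes lower in KO-labelled cells at an adjusted p under 0.05, grey points the others. Where 1 group has no count for a gene, the plotted difference moves with the prior count. The genes that rose reach further from 0 than those that fell, and Wdfy1 lies at -3.79.

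The gene with the smallest adjusted p was Wdfy1 (chr1:79702262-79776143), which encodes a phosphoinositide-binding protein of early endosomes. Wdfy1 stood at 28.4, 24.7, 27.9 and 28.7 CPM in the WT libraries and at 1.86, 1.63, 2.67 and 1.67 CPM in the KO-labelled libraries. The 2 sets lie far apart, with little spread in either. Wdfy1 was 13.8-fold lower in KO-labelled cells (log2 difference -3.79, SE 0.13, adjusted p = 3e-18). Eno3 (chr11:70653125-70662513), the muscle form of the glycolytic enzyme enolase, was as even within genotypes. Its values were 13.6, 14.0, 13.7 and 14.1 CPM in WT and 4.38, 4.07, 4.70 and 4.95 CPM in KO-labelled libraries, 3.06-fold lower (log2 difference -1.61, SE 0.14, adjusted p = 1.8e-08).

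Rgcc (chr14:79288750-79301635), a regulator of the cell cycle that responds to complement, had 46.4, 31.0, 57.6 and 50.3 CPM in WT and 11.2, 15.3, 6.08 and 8.18 CPM in KO-labelled libraries (4.57-fold lower, adjusted p = 4.6e-05). Crabp2 (chr3:87948693-87953372), which carries retinoic acid to its nuclear receptors, had 76.1, 60.7, 88.2 and 79.7 CPM in WT. Its KO-labelled values were 16.0, 7.95, 16.4 and 41.2 CPM, the last being KO replicate 4 and still below every WT library (log2 difference -1.90, adjusted p = 0.00084). Ccl1 (chr11:82176666-82179812) encodes a chemokine of activated T cells, the ligand of Ccr8. It had 14.7, 22.0, 24.2 and 14.4 CPM in WT and 5.17, 7.01, 7.55 and 6.95 CPM in KO-labelled libraries (log2 difference -1.49, adjusted p = 0.00019). Igsf3, an immunoglobulin superfamily membrane protein, Cd160, a receptor with inhibitory and activating roles on lymphocytes, and Trat1, an adaptor of the T cell receptor complex, also fell. Their log2 differences were -1.21, -1.04 and -0.98.

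Among genes whose higher group reached a mean of 5 CPM, the largest rise was that of Sostdc1 (chr12:36314169-36318452), a secreted antagonist of BMP and Wnt signals known in follicular helper T cells. Sostdc1 was at 0.117, 0.244, 0.169 and 0.839 CPM in WT and at 3.71, 8.20, 8.84 and 15.1 CPM in KO-labelled libraries. It was near the limit of detection in WT and 25.9-fold higher in KO-labelled cells (log2 difference 4.70, SE 0.75, adjusted p = 0.00011). Spock2 (chr10:60106257-60135198), an extracellular matrix proteoglycan, went from 0.394 to 1.44 CPM in WT to between 6.24 and 14.0 CPM (12.3-fold, adjusted p = 1.6e-06). Emp1 (chr6:135362550-135383173), a small membrane protein of the PMP22 family, had 1.11, 1.71, 1.80 and 1.14 CPM in WT and 8.66, 14.2, 9.25 and 10.8 CPM in KO-labelled libraries (7.41-fold, adjusted p = 1.7e-06). Gpm6b (chrX:166238943-166389033), a membrane glycoprotein of the proteolipid family, rose by 2.35 on the log2 scale (adjusted p = 9.1e-07), and Atp2b4, a plasma membrane calcium pump, by 2.51 (adjusted p = 6.1e-05). In each of these 5 genes the lowest KO-labelled library was above the highest WT library, which was a condition of their choice.

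Igj, the joining chain of secreted antibodies, was also among the largest rises, but 1 library carried much of it. Its values were 1.28, 2.99, 1.58 and 3.60 CPM in WT and 6.35, 81.4, 10.9 and 10.6 CPM in KO-labelled libraries (log2 difference 3.52, adjusted p = 0.023). The high value belonged to KO replicate 2, the library with the high B cell sum. Without that library the adjusted p was 0.22, without WT replicate 1 it was 0.081 and without WT replicate 3 it was 0.08. Igj was the 1 of 16 B cell markers called (6.25%, against 7.70% of all genes). The median log2 difference of that list was 1.13, and -0.01 without KO replicate 2.

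**Figure D2:**
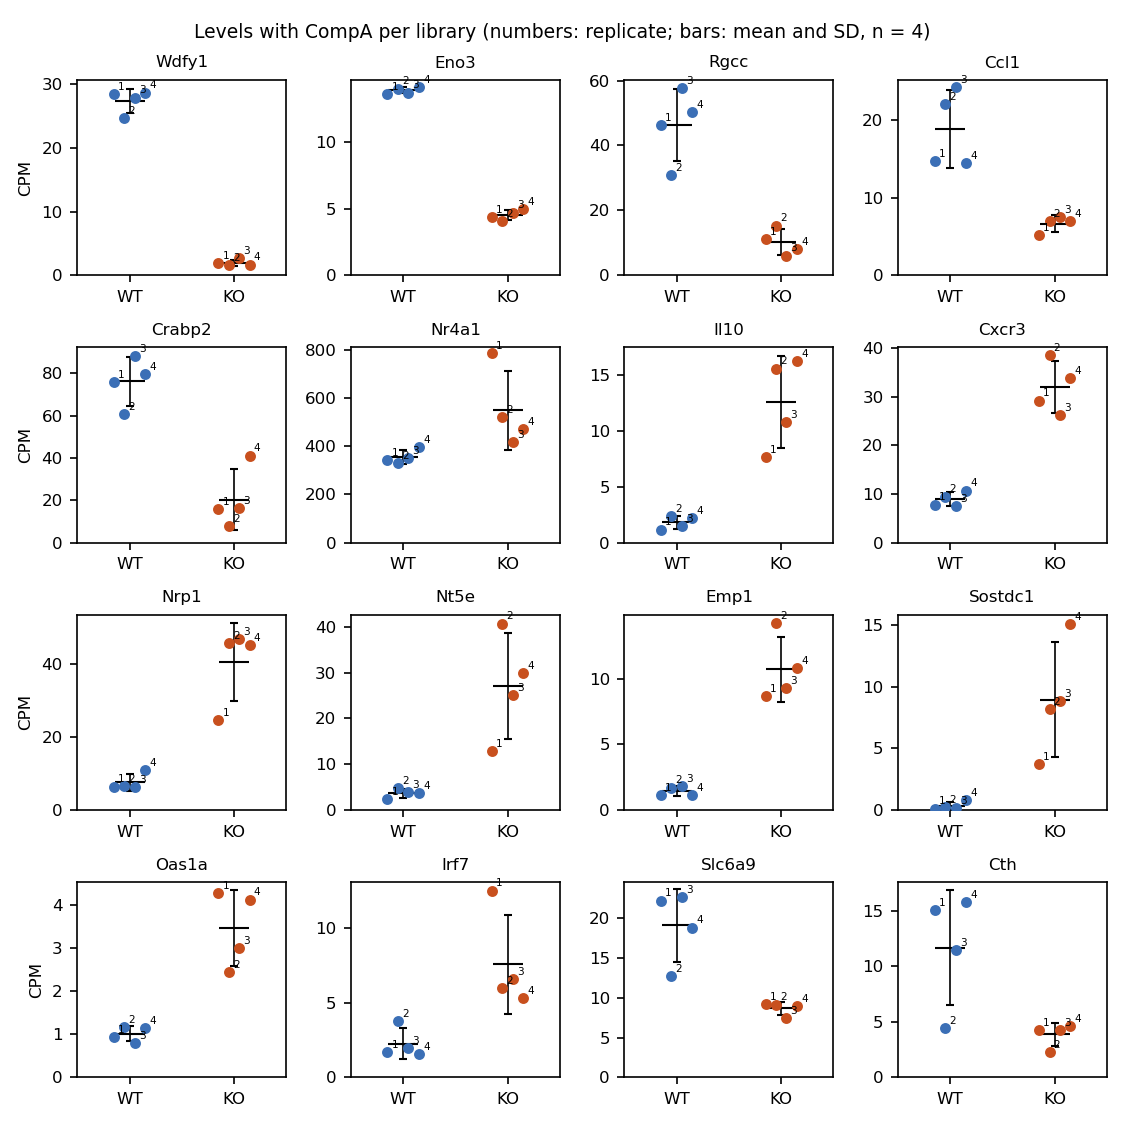
Level of 16 genes (CPM, linear scale) in each WT and KO-labelled library with CompA. Points are single libraries with their replicate numbers, and bars are the mean and SD of 4 libraries. Wdfy1 and Eno3 show tight and separate groups, the KO-labelled Nrp1, Nt5e and Emp1 libraries all lie above WT, and the amino acid genes Slc6a9 and Cth have WT replicate 2 as the lowest WT library.

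Genes that mark regulatory T cells rose together. Of 16 tested, 9 (56.2%, against 5.82% of all genes) were called higher and 0 lower. The median log2 difference was 1.16 against 0.02 over all genes. In bulk RNA, a larger share of cells of a type and more RNA per cell cannot be told apart. Foxp3 (chrX:7579676-7595243), the transcription factor that defines the lineage, had 21.7, 29.8, 20.1 and 23.1 CPM in WT and 41.3, 59.8, 86.9 and 87.9 CPM in KO-labelled libraries. Every KO-labelled library was above every WT library, KO replicate 1 being the lowest of them, and the rise was 2.92-fold (log2 difference 1.55, SE 0.26, adjusted p = 0.00024). Ikzf2, which encodes the transcription factor Helios, had 21.4, 23.7, 22.4 and 26.7 CPM against 41.2, 52.7, 95.0 and 90.6 CPM (log2 difference 1.57, adjusted p = 0.0011), in the same pattern.

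Surface molecules of these cells were among the strongest of the list. Nrp1 (chr8:128358591-128505476), a semaphorin and VEGF co-receptor carried by thymus-derived regulatory T cells, had 6.42, 6.65, 6.36 and 11.0 CPM in WT. It reached 24.7, 45.8, 46.9 and 45.1 CPM in KO-labelled libraries (5.33-fold, log2 difference 2.41, SE 0.26, adjusted p = 6.8e-07). Nt5e (chr9:88327609-88372089), the CD73 enzyme that makes adenosine from AMP, had 2.34, 4.76, 3.89 and 3.78 CPM against 12.8, 40.7, 25.1 and 29.9 CPM (log2 difference 2.88, adjusted p = 5.7e-06). Entpd1, the CD39 enzyme that acts before CD73 on ATP and ADP, rose as well (log2 difference 1.67). Ctla4, the inhibitory receptor for CD80 and CD86, had 18.2, 34.1, 21.0 and 25.6 CPM against 52.3, 61.1, 64.6 and 77.8 CPM (log2 difference 1.37, adjusted p = 1.2e-05). Klrg1 (3.10), Itgae (1.46) and Izumo1r (0.94) made up the 9. The activation-induced members Il2ra (0.18), Tnfrsf9 (-0.14) and Tnfrsf18 (0.38), which conventional activated T cells also express, did not pass. Without WT replicate 2, the highest WT library for Foxp3, Nt5e and Ctla4, 14 of the 16 were called.

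Several cytokine genes were higher in KO-labelled cells, the anti-inflammatory Il10 (chr1:131019845-131024970) foremost. Il10 had 1.17, 2.38, 1.52 and 2.22 CPM in WT and 7.65, 15.6, 10.8 and 16.3 CPM in KO-labelled libraries, a 6.90-fold difference without overlap (log2 difference 2.79, SE 0.36, adjusted p = 5.4e-06). Tgfb1, another suppressive cytokine, had 152, 148, 135 and 145 CPM against 202, 190, 194 and 196 CPM, a small and even rise (log2 difference 0.43, SE 0.07, adjusted p = 0.00012). Of 22 cytokine genes tested 8 rose and 1 fell (40.9% called, against 7.70% of all genes), and the list's median was 0.33. Csf1, the macrophage growth factor, and Il21, the helper cytokine of germinal centres, rose by 1.52 and 1.77, and Il2 (-0.53) did not pass. The 1 that fell was Tnfsf11, which encodes the TNF family ligand RANKL (94.2, 53.3, 103 and 102 CPM in WT against 47.2, 57.3, 32.4 and 43.5 CPM, adjusted p = 0.011). WT replicate 2 was within the KO-labelled range there. Leaving out WT replicate 1, WT replicate 3, KO replicate 3 or KO replicate 4 left 5 cytokine genes called higher, and without KO replicate 3 none was called lower.

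Maf, a transcription factor of Il10-producing, follicular and other helper cells, had 2.63, 2.99, 1.63 and 3.66 CPM in WT and 8.04, 14.5, 18.6 and 19.2 CPM in KO-labelled libraries (log2 difference 2.47, adjusted p = 0.00019). Prdm1, encoding Blimp-1, a transcriptional repressor of effector cells that also acts on Il10, was at 2.63 ± 0.390 CPM and 12.4 ± 4.85 CPM (SD, n = 4; log2 difference 2.25, adjusted p = 0.00035). Both factors were above the WT range in every KO-labelled library.

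Of the 12 follicular helper genes tested, 7 (5.82% of all genes tested were higher) rose and 1 fell, with a median of 0.78. Slamf6, a receptor of the SLAM family, was at 33.5 ± 4.10 CPM in WT against 62.3 ± 6.67 CPM in KO-labelled cells (log2 difference 0.89, adjusted p = 3.8e-06). Cxcr5, the receptor that brings T cells to follicles, rose by 1.25 on the log2 scale (adjusted p = 0.0032). Icos, Il21, Maf, Ascl2 and Sostdc1 rose too, Ascl2 from levels near 0. The lineage factors Bcl6 (0.31) and Tcf7 (0.12) did not pass. Cd40lg, the ligand through which helper cells activate B cells, fell instead. It had 146, 79.1, 132 and 147 CPM in WT against 73.0, 66.1, 73.2 and 78.7 CPM (log2 difference -0.79, adjusted p = 0.0058), WT replicate 2 lying just above the KO-labelled libraries.

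Among genes of type 1 helper cells 8 of 17 rose (47.1%, against 5.82% of all genes) and none fell (median 0.80). Again no change was called in the lineage factor, here Tbx21 (0.08). Cxcr3 (chrX:101731535-101734147), the chemokine receptor of type 1 effector cells, had 7.82, 9.46, 7.60 and 10.7 CPM in WT and 29.2, 38.6, 26.3 and 33.9 CPM in KO-labelled libraries. The KO-labelled values were 3.60-fold higher and all clear of WT (log2 difference 1.85, SE 0.16, adjusted p = 1.8e-08). Il18r1, a receptor subunit for interleukin 18, rose by 2.11, the chemokine gene Ccl5 by 2.21 and the granzyme gene Gzmk by 2.73. Ifng, the signature cytokine, had 29.6, 38.4, 67.7 and 41.2 CPM against 78.3, 66.4, 160 and 120 CPM, with WT replicate 3 above KO replicate 2 (log2 difference 1.26, adjusted p = 0.027). That call was lost without WT replicate 1 (0.1), WT replicate 2 (0.058), WT replicate 4 (0.073), KO replicate 3 (0.14) or KO replicate 4 (0.068). Without KO replicate 3 the list had 5 genes called.

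Of the 13 type 17 helper genes 5 rose (38.5%, against 5.82% of all genes) and none fell (median 0.99). Rora, a nuclear receptor of this and the innate-like lineages, rose by 1.29 (adjusted p = 0.0026), and Tmem176b, a membrane protein of immune cells, by 1.48 (adjusted p = 0.0052). Il17a (0.13), the lineage's defining cytokine, did not pass. The count was 2 without WT replicate 3 or KO replicate 2, and 3 without WT replicate 1, WT replicate 4 or KO replicate 4.

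Chemokine genes and their receptors moved both ways, with 8 of 21 higher and 3 lower (52.4% called, against 7.70% of all genes). The median was 0.66. Cxcl10, a ligand of Cxcr3, had 4.44, 5.62, 4.96 and 4.14 CPM in WT and 12.0, 15.1, 13.4 and 13.2 CPM in KO-labelled libraries (log2 difference 1.49, adjusted p = 1.9e-05). The 3 that fell were Ccl1, Ccl17 and Ccr4, the last being the receptor of Ccl17. Ccr4 had 76.6, 115, 64.9 and 55.9 CPM in WT and 21.0, 29.3, 40.6 and 52.0 CPM in KO-labelled libraries (log2 difference -1.13, adjusted p = 0.03). The groups nearly met, and without WT replicate 2 the adjusted p was 0.12, without KO replicate 1 it was 0.091, without KO replicate 2 0.092, without WT replicate 1 0.067 and without KO replicate 3 0.055. Ccl17 was under 2 CPM in every library with CompA.

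Inhibitory receptors and exhaustion genes had 6 of 21 higher and 1 lower (33.3% called, against 7.70% of all genes), at a median of 0.13. Rnf128, the GRAIL ubiquitin ligase of anergic T cells, rose by 1.88 from a low level, and Tox, a nuclear factor of exhausted T cells, by 0.70 (adjusted p = 0.0011). Cd160 was the one that fell, with 14.5, 10.4, 14.2 and 16.4 CPM in WT against 6.07, 8.14, 6.03 and 6.79 CPM (adjusted p = 0.00071). Lag3 (-0.11) and Pdcd1 (0.37) did not pass. Of 18 TNF receptors and ligands 3 rose and 2 fell (27.8% called). Tnfrsf8, which encodes CD30, rose by 1.97 and Tnfrsf25, the death receptor DR3, by 0.59. Cd27, a costimulatory receptor of naive and memory cells, was at 143 ± 2.25 CPM in WT against 113 ± 7.19 CPM in KO-labelled cells (log2 difference -0.34, adjusted p = 0.0069). Without WT replicate 2, 5 of these genes were called higher.

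Genes of cytoskeleton, adhesion and migration rose as a group. Of 23 tested, 13 were higher (56.5%, against 5.82% of all genes), none lower, and the median was 0.96. Their summed level was 1878 to 2000 CPM in WT and 2217 to 2634 CPM in KO-labelled libraries. Vim, the intermediate filament protein vimentin, had 51.7, 89.6, 55.1 and 55.3 CPM in WT and 147, 197, 194 and 241 CPM in KO-labelled libraries (log2 difference 1.63, adjusted p = 1.3e-05). Itgb1, the integrin beta 1 chain, was at 203 ± 21.8 CPM and 314 ± 36.0 CPM (SD, n = 4; adjusted p = 0.00057). The calcium-binding proteins S100a6 and S100a11 were 4.21-fold and 2.26-fold higher, the membrane-binding protein Anxa2 rose by 1.46 on the log2 scale and Itgb7, the partner of Itgae and Itga4, by 0.96. WT replicate 2 was the highest WT library for Vim, Anxa2 and Itgb7 and lay below the KO-labelled range in each. The summed myeloid markers, which also did not overlap between genotypes, reached at most 63.1 CPM, and their part in these rises was not tested.

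Among the called genes with the highest mean CPM, which is not corrected for gene length, Ly6e, a surface protein of lymphocytes, was at 340 ± 41.4 CPM in WT against 517 ± 74.5 CPM in KO-labelled cells (adjusted p = 0.0084). Spn, the sialoglycoprotein CD43, was at 319 ± 14.1 and 381 ± 14.7 CPM (log2 difference 0.25, adjusted p = 0.0062). Hspd1, the mitochondrial chaperonin HSP60, was the most abundant called gene that was lower, at 1565 ± 131 CPM in WT against 1216 ± 56.2 CPM in KO-labelled cells (log2 difference -0.36, adjusted p = 0.018). That call was lost without WT replicate 1 (0.062), WT replicate 3 (0.061), WT replicate 4 (0.053), KO replicate 2 (0.053) or KO replicate 3 (0.059), and with library totals (0.076).

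Interferon-stimulated genes, which type I and type II interferons switch on through STAT factors, differed in 1 direction. All 28 tested had a positive log2 difference, 16 (57.1%, against 5.82% of all genes) were called higher and the median was 1.11. Such genes often carry an interferon-stimulated response element, searched here on both strands as GAAA, any 2 bases and GAAA again, in the 300 bases from 250 before to 50 after the start of each gene. Of the 8 called genes of the list that hold the element, Oas1a, Gbp3 and Ddx58 had the smallest adjusted p. Their promoters are printed (for Gbp3, which has 2, the first that holds a match). They are RefSeq sequences (GRCm38.p6), 5′ to 3′ on the gene's strand, with the matches in capitals (overlapping matches run together, and a match on the other strand reads TTTC, 2 bases, TTTC), from chr5:120907476-120907775 (minus strand), chr3:142559794-142560093 (plus strand) and chr4:40239776-40240075 (minus strand).
Oas1a: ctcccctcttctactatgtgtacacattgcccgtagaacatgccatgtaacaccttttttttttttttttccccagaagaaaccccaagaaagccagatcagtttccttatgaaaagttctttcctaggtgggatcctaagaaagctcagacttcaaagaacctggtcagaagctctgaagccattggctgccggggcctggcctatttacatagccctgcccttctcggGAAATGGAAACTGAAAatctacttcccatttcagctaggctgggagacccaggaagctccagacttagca
Gbp3: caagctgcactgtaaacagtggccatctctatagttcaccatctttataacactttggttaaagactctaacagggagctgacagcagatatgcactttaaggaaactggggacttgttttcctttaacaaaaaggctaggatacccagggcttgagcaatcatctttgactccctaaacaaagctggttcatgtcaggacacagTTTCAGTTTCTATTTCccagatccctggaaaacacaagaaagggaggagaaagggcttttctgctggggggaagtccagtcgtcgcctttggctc
Ddx58: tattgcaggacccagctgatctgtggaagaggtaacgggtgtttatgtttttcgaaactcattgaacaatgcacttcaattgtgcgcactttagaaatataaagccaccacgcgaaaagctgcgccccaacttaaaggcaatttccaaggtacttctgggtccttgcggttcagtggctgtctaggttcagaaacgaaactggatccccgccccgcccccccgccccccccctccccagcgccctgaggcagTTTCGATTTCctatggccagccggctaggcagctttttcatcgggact
A match was found in 8 of the 13 called interferon-stimulated genes with a promoter sequence (61.5%), in 12 of the 20 tested members with one (60.0%), called or not, in 7.85% of the promoters of all genes called higher, in 2.76% of those called lower and in 4.03% of the 9853 tested genes with a promoter sequence. A match describes letters in the window and not a site in use.

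Oas1a, a sensor of double-stranded RNA that makes oligoadenylate, had 0.934, 1.16, 0.788 and 1.14 CPM in WT and 4.27, 2.44, 2.99 and 4.12 CPM in KO-labelled libraries (3.43-fold, adjusted p = 0.00037). Gbp3, an interferon-induced GTPase, had 22.1, 31.7, 20.7 and 23.7 CPM against 35.1, 45.7, 50.1 and 50.1 CPM (log2 difference 0.88, adjusted p = 0.00069). Irf7, the transcription factor that amplifies interferon production, had 1.69, 3.78, 1.97 and 1.56 CPM against 12.5, 5.95, 6.58 and 5.28 CPM, KO replicate 1 being the highest (log2 difference 1.75, adjusted p = 0.0015). The groups did not overlap in any of the 3. Rtp4, Isg15, Oasl1, Oasl2, Oas3, Ddx58, Ifih1, Dhx58, Stat2, Zbp1, Xaf1, Ifi44 and Ifit3 were the other genes called. Over the summed list WT replicate 2 was the highest WT library (1856 CPM, the others 1097 to 1198) and KO replicate 2 the lowest KO-labelled library (1125 CPM, the others 1939 to 2293), so the sums overlapped.

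Genes of the amino acid response went the other way. The list held 21 tested genes, for the transcription factor ATF4 and its targets in amino acid synthesis and transport. Of them 8 (38.1%, against 1.88% of all genes) fell, none rose, and the median log2 difference was -0.43. Cth (chr3:157894248-157925081), which makes cysteine from cystathionine, had 15.1, 4.46, 11.5 and 15.8 CPM in WT and 4.27, 2.32, 4.28 and 4.62 CPM in KO-labelled libraries (log2 difference -1.59, SE 0.37, adjusted p = 0.0063). WT replicate 2 lay among the KO-labelled libraries. Psat1 (chr19:15905123-15925059), an enzyme of serine synthesis, had 801, 592, 731 and 738 CPM against 548, 418, 397 and 466 CPM, without overlap (log2 difference -0.65, SE 0.15, adjusted p = 0.0056).

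Other enzymes of serine, glycine, proline and one-carbon metabolism had smaller differences. Aldh18a1, the first enzyme of proline synthesis, had 270, 208, 265 and 262 CPM in WT and 188, 177, 187 and 187 CPM in KO-labelled libraries (adjusted p = 0.007). Shmt2, which makes glycine from serine in mitochondria, had 643, 576, 635 and 615 CPM against 536, 473, 423 and 487 CPM (adjusted p = 0.022). Phgdh, the entry enzyme of serine synthesis, had 510, 419, 483 and 483 CPM against 401, 348, 313 and 346 CPM (adjusted p = 0.02). In all 3 the groups did not overlap and WT replicate 2 was the lowest WT library. The remaining calls were Pycr1 (-0.87), Mthfd2 (-0.45) and Psph (-0.54), and Asns, the asparagine synthetase gene, did not pass (-0.34, adjusted p = 0.35). The count of 8 depended on single libraries. It was 3 without WT replicate 1, WT replicate 3 or KO replicate 3, 4 without WT replicate 4 or KO replicate 4, and 5 without KO replicate 2, while without WT replicate 2 it was 10. Psat1, Cth and Aldh18a1 kept their calls in all 17 alternatives.

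Outside the list, 2 amino acid transporters and a transaminase were among the genes with the largest falls. Slc6a9 (chr4:117835258-117869305), the glycine transporter GlyT1, had 22.2, 12.7, 22.6 and 18.8 CPM in WT and 9.22, 9.14, 7.46 and 8.96 CPM in KO-labelled libraries (log2 difference -1.14, adjusted p = 0.0033). Gpt2 (chr8:85492576-85528902), the mitochondrial alanine transaminase, had 34.6, 15.9, 34.1 and 36.3 CPM against 15.2, 13.3, 15.8 and 14.1 CPM (log2 difference -1.05, adjusted p = 0.0065). WT replicate 2 was again the lowest WT library and lay close to the KO-labelled range in Gpt2. Slc7a3, a transporter of basic amino acids, had 4.70 to 10.2 CPM in WT and 2.26 to 3.63 CPM in KO-labelled libraries (adjusted p = 0.04). Its call was lost in 8 of 17 alternatives, with leaving out any library except WT replicate 2 among them (0.06 to 0.13).

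The element that ATF4 binds with C/EBP factors was searched as TGATGNAAN on both strands of the same windows. Of the 19 tested members of the list with a promoter sequence 5 held it (26.3%), and of the 7 called ones 1 (14.3%). The called one was Pycr1, whose promoter (RefSeq, GRCm38.p6, chr11:120643699-120643998, minus strand) is printed with the match in capitals because it is the only called member of the list with a match.
Pycr1: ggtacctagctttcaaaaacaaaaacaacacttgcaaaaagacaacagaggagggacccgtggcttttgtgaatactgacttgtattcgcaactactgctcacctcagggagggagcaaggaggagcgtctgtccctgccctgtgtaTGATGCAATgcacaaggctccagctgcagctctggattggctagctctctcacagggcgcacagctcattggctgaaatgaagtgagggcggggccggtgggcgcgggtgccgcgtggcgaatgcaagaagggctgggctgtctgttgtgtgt
Over all genes the share with this element was 2.87%, against 4.93% among genes called higher and 9.94% among genes called lower. The NBRE, the 8-base element AAAGGTCA to which Nur77 binds as a monomer, was in 118 of the 9853 windows (1.20%), in 2 of the 548 promoters of genes called higher (0.365%) and in 7 of the 181 of genes called lower (3.87%). These shares are descriptions, with few matches behind them.

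**Figure D3:**
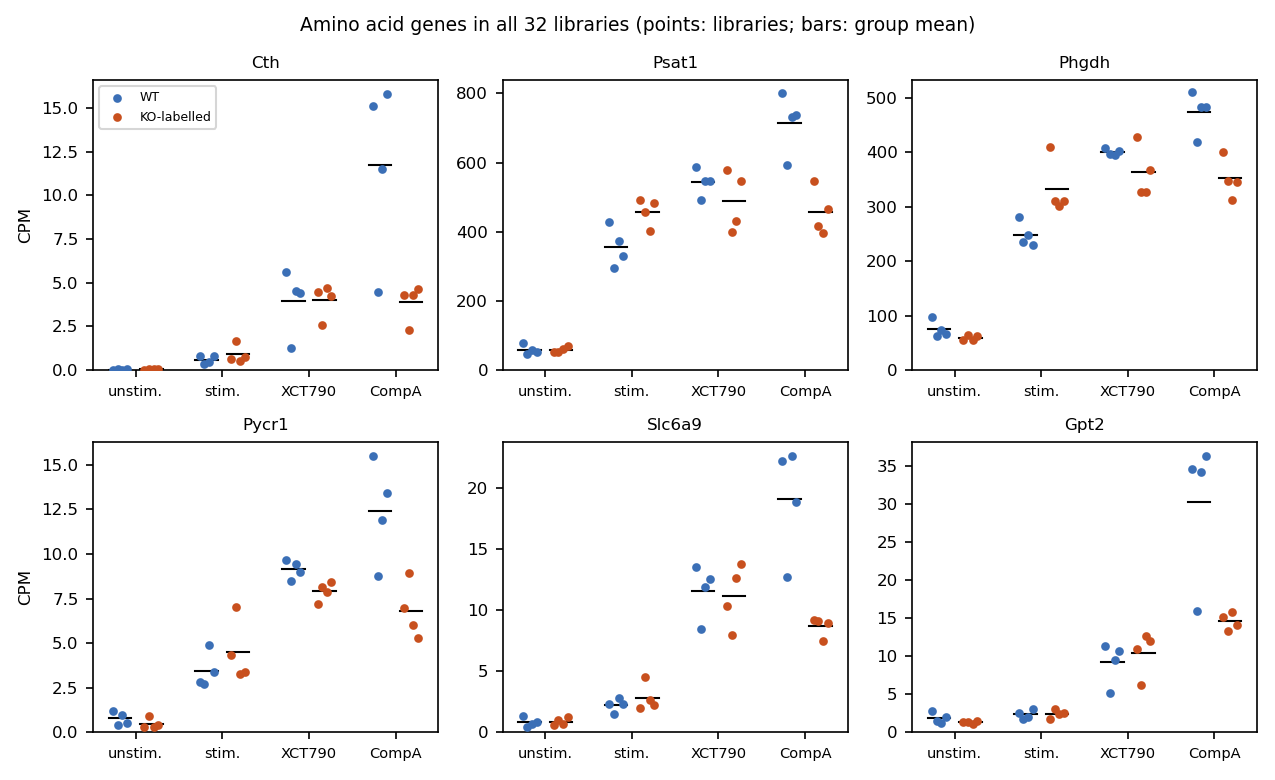
Levels of Cth, Psat1, Phgdh, Pycr1, Slc6a9 and Gpt2 (CPM) in all 32 libraries by condition and genotype. Points are single libraries and bars are group means (n = 4). WT and KO-labelled means lie close with XCT790 (Cth 3.96 and 4.01 CPM) and apart with CompA (11.7 and 3.87 CPM).

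Genes of mitochondrial metabolism had small differences that nearly all pointed down. All 19 genes of the tricarboxylic acid cycle had a negative log2 difference (median -0.21), and 3 were called lower (15.8%, against 1.88% of all genes). The count was 5 without KO replicate 1 and 6 with DESeq2, and 2 without KO replicate 3 or with a fit of the CompA groups alone. Dld, the dihydrolipoamide dehydrogenase shared by several dehydrogenase complexes, was at 224 ± 4.87 CPM in WT against 178 ± 17.3 CPM in KO-labelled cells (log2 difference -0.33, adjusted p = 0.0046). Sucla2, a subunit of succinyl-CoA synthetase, was at 137 ± 4.77 and 105 ± 12.3 CPM (adjusted p = 0.0069). Pdha1, a subunit of pyruvate dehydrogenase, was at 340 ± 8.02 and 283 ± 18.8 CPM (adjusted p = 0.012, and 0.067 without KO replicate 3). The summed level of the 19 genes was 4036 to 4157 CPM in WT and 3275 to 3832 CPM in KO-labelled libraries, without overlap.

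All 36 complex I subunits tested had a negative log2 difference, with a median of -0.26, yet 1 was called. That gene, Ndufs1 (-0.23, adjusted p = 0.044), lost its call in 12 of 17 alternatives, including without each of WT replicates 1 to 4 (0.072 to 0.16) and KO replicates 2 to 4 (0.085 to 0.17). The complex I sum was 5182 to 5616 CPM in WT and 5380, 4400, 3573 and 4573 CPM in KO-labelled replicates 1 to 4, so that KO replicate 1 lay within the WT range. The 40 subunits of complexes II to V had a median of -0.25 with none called, and 2 of 58 mitochondrial ribosomal protein genes fell (3.45%, against 1.88% of all genes; median -0.21). Without KO replicate 1 the last count was 4, without KO replicate 3 it was 1, and with DESeq2 it was 7. With library totals 17 of 19 cycle genes and 35 of 36 complex I genes stayed negative.

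Calls among cell division genes depended on single libraries and on the method. The 24 mitosis genes had a median log2 difference of 1.17, with 23 positive, beside 6487 of 12332 over all genes. Of the 24, 3 were called, all higher (12.5%, against 7.70% of all genes called). Their sum was 81.6 to 89.0 CPM in WT and 131, 61.6, 206 and 193 CPM in KO-labelled replicates 1 to 4, so 3 libraries were above WT and KO replicate 2 below it. Ccnb2, the cyclin B2 gene, had 0.350 to 0.794 CPM in WT and 2.30, 0.626, 3.73 and 3.23 CPM in KO-labelled libraries (adjusted p = 0.012). Without KO replicate 2, 11 of the 24 were called. The count was 0 without WT replicate 1 or KO replicate 3, and 1 without WT replicate 3, WT replicate 4 or KO replicate 4. With limma-voom on all libraries it was 0, and 1 with the run of library numbers as a random replicate block. The 36 DNA replication genes, which act before mitosis in the cell cycle, had none called and a median of -0.07, which turned to 0.02 with library totals.

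Genes of naive and resting T cells had 2 of 23 called higher (8.70% called, against 7.70% of all genes) and a median of 0.17. The count was 1 without WT replicate 1, 3 or 4 or KO replicate 3 or 4, and 4 without WT replicate 2. S1pr1, the receptor that lets lymphocytes leave lymphoid organs, had 15.5, 33.1, 14.4 and 14.3 CPM in WT and 51.8, 56.3, 39.2 and 43.7 CPM in KO-labelled libraries (log2 difference 1.31, adjusted p = 0.006). WT replicate 2 was the highest WT library and still below the KO-labelled range. Il7r (1.02), the receptor of the survival cytokine interleukin 7, did not pass.

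**Figure D4:**
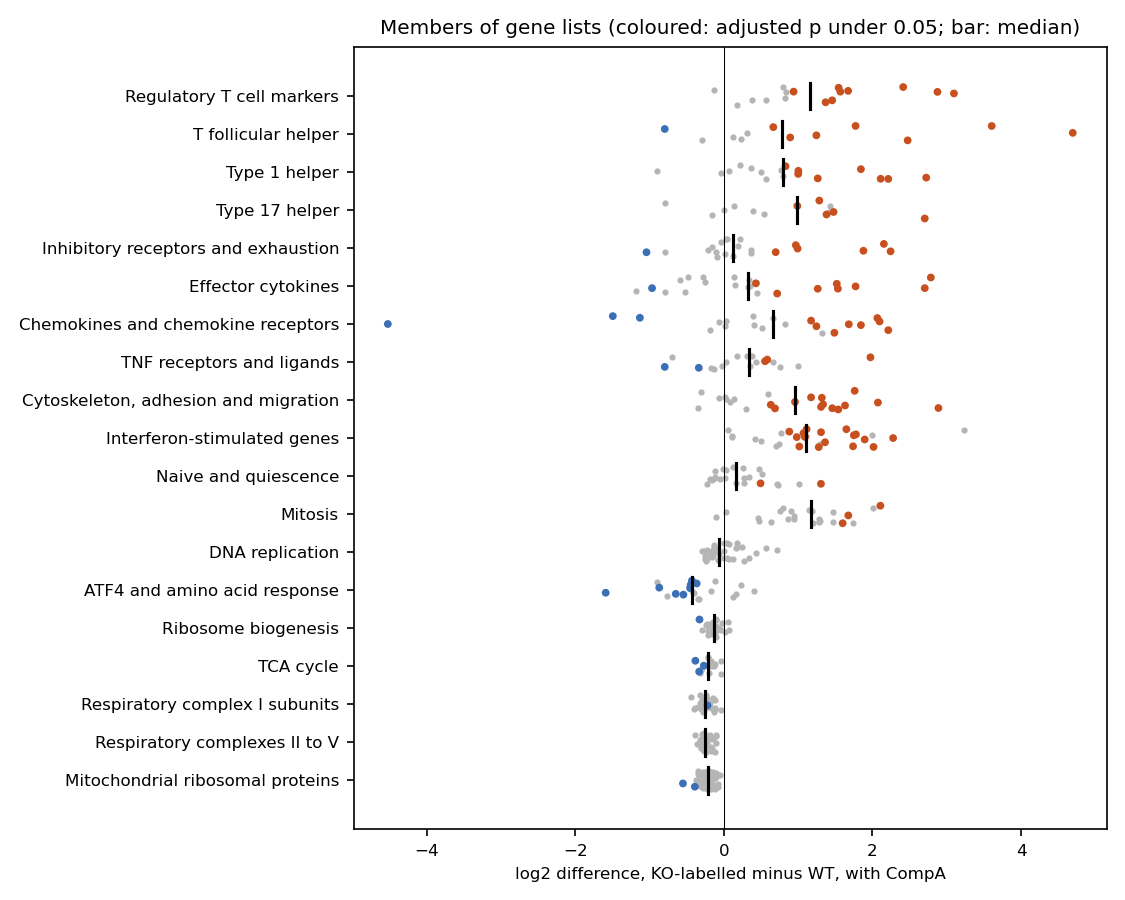
Log2 difference between KO-labelled and WT cells with CompA for the members of 19 gene lists. Each point is a gene, coloured where its adjusted p was under 0.05 (orange higher, blue lower), and the bar is the list's median. Regulatory T cell markers, interferon-stimulated genes and cytoskeletal genes lie mostly above 0, and the amino acid, cycle and respiratory lists mostly below it.

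Genes near Nr4a1 on chromosome 15 were examined as a group. Of 102 tested genes within 5 Mb, 9 were called higher and 3 lower (11.8%, against 7.70% of all genes), with a median of -0.02. The 3 lower calls became 1 without WT replicate 3 or KO replicate 3 and 5 without KO replicate 1. Acvrl1 (chr15:101128522-101145336), the ALK1 receptor of the BMP pathway, lies 108.6 kb away. It had 4.26, 3.78, 2.82 and 3.84 CPM in WT and 0.618, 0.688, 0.553 and 0.890 CPM in KO-labelled libraries (5.34-fold lower, adjusted p = 1.7e-06). Prr13, a small proline-rich protein gene at 1184.4 kb, was at 44.7 ± 4.41 CPM in WT against 82.0 ± 6.87 CPM in KO-labelled cells (adjusted p = 2.7e-06). Pou6f1, a POU domain factor at 653.8 kb, and Rarg, the retinoic acid receptor gamma gene at 960.1 kb, rose by 1.60 and 1.12. The strand setting of the counting is unstated in the labels, so reads of overlapping and antisense genes may have been shared.

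The same genotype contrast in the other 3 conditions rests on other libraries, although their numbers fall in the same runs as those of the CompA libraries. With XCT790, 1173 genes (9.51%) were called, in stimulated cells without an inhibitor 3111 (25.2%) and in unstimulated cells 4454 (36.1%). The CompA differences resembled those with XCT790 most. Of the 718 genes higher with CompA, 544 (75.8%, or 59.6% of the 913 higher with XCT790) were also called higher with XCT790 and 0 were called lower. Of the 232 lower genes, 123 (53%, or 47.3% of the 260 lower with XCT790) were shared and 1 was called the opposite way. Pearson's r of the log2 differences over 12332 genes was 0.74 with XCT790, 0.42 with unstimulated cells and -0.04 with stimulated cells, a description across genes, which are not independent replicates.

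Fewer of the CompA calls were shared with stimulated cells that had no inhibitor. There 220 of the 718 higher genes (30.6%) were called higher and 164 lower, and 53 of the 232 lower genes (22.8%) were called lower and 12 higher. Over all 12332 genes, 902 were called higher and 2209 lower in that condition. In unstimulated cells 312 (43.5%) and 115 (49.6%) were shared, with 27 and 7 opposite, beside 1543 higher and 2911 lower over all genes. In all 3 other conditions 141 of the higher and 23 of the lower genes were called in the same direction. In none of the 3 were 50 of each called in either direction. Wdfy1 was among the genes lower everywhere (-3.83 in stimulated, -3.68 with XCT790 and -2.30 in unstimulated cells), as were Eno3 (-1.37, -1.53 and -1.18) and Rgcc (-2.42, -2.36 and -1.33). Il10 was higher everywhere, by 3.01, 2.94 and 2.57 in the same order.

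**Figure D5:**
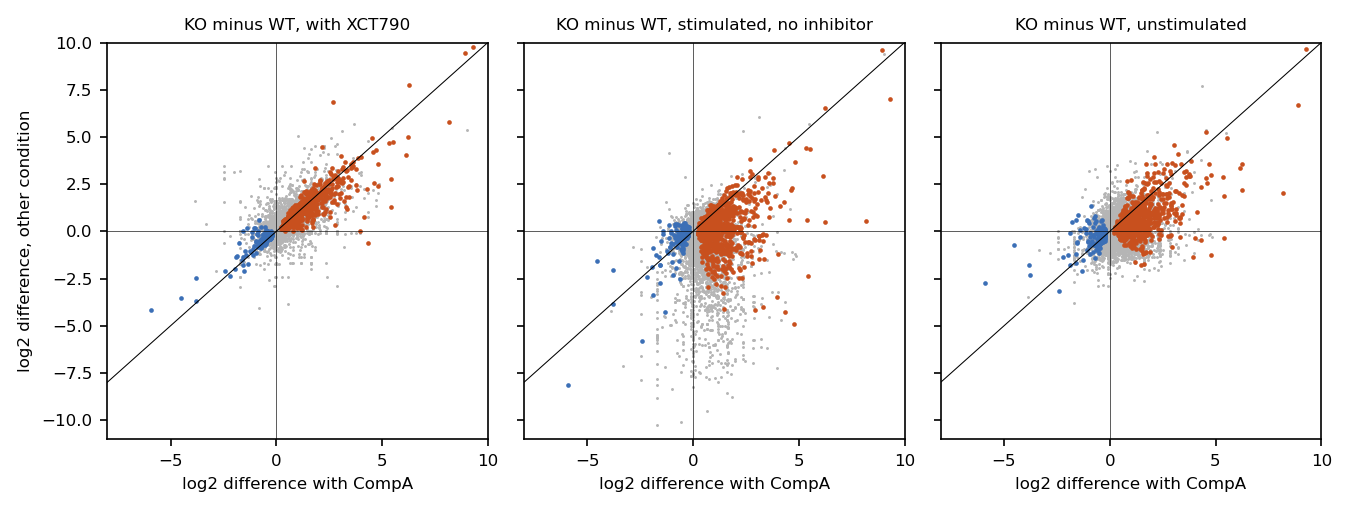
Log2 difference between KO-labelled and WT cells with XCT790, in stimulated cells without inhibitor and in unstimulated cells (vertical axes) against the difference with CompA (horizontal axes), 1 point per gene tested. Orange and blue points are genes called higher and lower with CompA, grey points the others, and the line marks equality. The coloured points follow the line with XCT790 (r 0.74) and scatter on both sides of 0 in stimulated cells (r -0.04).

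Whether a genotype difference depended on the condition was tested as an interaction in the same fit. Between CompA and stimulated cells without inhibitor, 2661 genes (21.6%) had different genotype effects, 1922 with a more positive and 739 with a more negative difference under CompA. With limma-voom the count was 2792, and 4243 with the run of library numbers as a random replicate block. The positive share of these calls was 72.2%, against 82.7% with library totals and 58.4% with edgeR's relative log expression factors, and library totals moved the median of all genes from 0.03 to 0.15. Nrp1 (1.76, adjusted p = 0.00058), Nt5e (2.60), Maf (3.06), Spock2 (2.39) and Cxcr3 (1.56, adjusted p = 9.2e-06) had more positive differences with CompA. In stimulated cells Maf had a difference of -0.59, Nt5e of 0.28 and Cxcr3 of 0.29, none of them called. Of the regulatory T cell list 6 of 16 genes had a more positive difference with CompA and 1 a more negative one. Of the interferon-stimulated genes 14 of 28 and of the cytoskeletal genes 15 of 23 were more positive and none more negative, beside 1922 of 12332 over all genes.

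The amino acid genes had more negative differences with CompA than without inhibitor. Of 21 tested, 11 passed the interaction test in that direction, beside 739 of 12332 over all genes. In stimulated cells mean Cth was 0.597 CPM for WT and 0.901 CPM for KO-labelled libraries, and with CompA 11.7 and 3.87 CPM (interaction -2.15, adjusted p = 0.013). Psat1 means were 357 and 458 CPM without inhibitor and 715 and 457 CPM with CompA (-1.01, adjusted p = 0.00082). Slc6a9 means were 2.26 and 2.84 CPM, then 19.1 and 8.69 CPM (-1.45, adjusted p = 0.0055). In these 3 genes the WT level with CompA was well above the WT level without it, and the KO-labelled level with CompA lay below that of WT. Gpt2 (-1.09), Asns (-1.26) and Pycr1 (-1.24) also passed.

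The most positive interactions belonged to genes that were high in WT stimulated cells. Emr4, a macrophage adhesion receptor gene, averaged 51.8 ± 27.1 CPM in WT stimulated cells against 0.0662 CPM in KO-labelled ones, and 0.0150 and 0.0256 CPM with CompA. Igf1, the growth factor gene, was at 15.9 and 0.0802 CPM in stimulated cells, with 1 count in all WT and 5 counts in all KO-labelled libraries with CompA. Myeloid markers were called higher in WT than in KO-labelled stimulated cells for 20 of 26 genes, beside 2209 of 12332 over all genes. With CompA 3 of 26 were called (11.5%, against 7.70% of all genes), all higher in KO-labelled cells. That count was 0 to 5 when a library was left out, and 0 with limma-voom, with or without the replicate block. The part of myeloid cells in the 2661 interactions was not tested.

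Between CompA and XCT790 the genotype effects of 0 of 12332 genes differed by edgeR's quasi-likelihood test (0%), with 165 at an unadjusted p under 0.05. DESeq2 called 2 genes. Of the amino acid genes, 8 of 21 were called lower with CompA and 0 of 21 with XCT790 (median 0.03). For Cth the interaction was -1.61 (SE 0.52), for Gpt2 -1.24 (SE 0.35) and for Slc6a9 -1.08 (SE 0.34), each with an adjusted p of 1. Leaving out WT replicate 2 of CompA gave 2 called genes, and leaving out KO replicate 2 of XCT790 gave 1. A p that misses the threshold does not show that the compounds act alike.

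Between CompA and unstimulated cells 477 genes (3.87%) had different genotype effects, 339 more positive and 138 more negative with CompA. With limma-voom the count was 374, and 1224 when the run of library numbers was a random replicate block. With library totals 371 were called, 188 of them positive (50.7% against 71.1%), as the median of all genes moved from 0.11 to -0.02. Lag3, an inhibitory receptor gene, had the more positive difference in unstimulated cells (interaction -2.40, adjusted p = 0.00014), as had the relatives of Nr4a1, Nr4a2 (-1.89, adjusted p = 0.011) and Nr4a3 (-1.29, adjusted p = 0.0047). Ccl1 differed in the same direction (-2.38, adjusted p = 0.01). Wdfy1 had a more negative difference with CompA than in unstimulated cells (-1.49), and Emp1 a more positive one (1.70). The count ranged from 269 without WT replicate 3 of CompA to 897 without WT replicate 2 of the unstimulated cells.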

How the data were processed

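Poly(A) RNA was sequenced from directional libraries. Each deposited file gives unnormalized whole-number read counts by gene symbol. Tools named in the submitters' processing notes are Trimmomatic 0.36, HISAT2 2.1.0, SAMtools, HTSeq 0.9.1, R 3.4.4 and DESeq2 1.18.1, with the mm10 build. HTSeq's strand setting and the annotation are not given in the sources used here. Each file lists 24302 genes and 5 lines that name none. Of the reads counted to a gene, to no gene or as ambiguous, 5.85 to 7.72% were in no gene in the CompA libraries and 1.18 to 1.53% were ambiguous. The line for non-unique alignments held 60.2 to 73.7 per 100 gene counts. Such lines entered neither library sizes nor tests.

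Counts were tested with edgeR 4.0.16 (quasi-likelihood F test, TMM factors, default filter on low counts; limma 3.58.1, R 4.3.3). The fit used all 32 libraries and 1 mean for each group, and it was tested on simulated data. A gene was called at a Benjamini-Hochberg adjusted p under 0.05 over 12332 genes. Alternatives were DESeq2 1.42.0, limma-voom with and without the run of library numbers as a random block, 3 other scalings, 2 other filters, a fit of the compared groups alone and leaving out each library. Replicates differed by more than sampling noise in every pair (chi-square per degree of freedom 2.91 to 65.2). Promoters came from RefSeq by symbol, for 548 of 718 higher and 181 of 232 lower genes. Coordinates were looked up by symbol for 24149 genes.

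The genes and lists were chosen with earlier results of these data known. The naming rule took Nr4a1, its relatives and Esrra, the 12 largest changes in each direction among called genes without overlap and with at least 5 CPM in the higher group, the 4 most abundant called genes in each direction, up to 4 members of each described list by adjusted p, and the 4 largest interactions in each direction. Genes named only as members of a list counted in the text, and Foxp3, Ikzf2, Ifng, Mthfd2, Psph and Shmt2, were named after their values were seen. The run of library numbers is nested in genotype, so run and genotype cannot be told apart. Some members of the lists are not reported here.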

Additional observations from a re-analysis of the deposited data

Results flagged for a closer look

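Among 232 sets of 4 libraries (named genes, WT or KO-labelled with CompA), 29 held a value far from the other 3 by Dixon's criterion, which chance meets in about 1 in 20 sets. WT replicate 2 supplied 13 of them. It was the low one for Aldh18a1 (208 CPM), Bdh2 (5.07 CPM), Gpt2 (15.9 CPM), Hspa9 (1024 CPM) and Hspd1 (1370 CPM). It was the high one for Flt3 (1.59 CPM), Gm4951 (1.77 CPM), Gzmk (0.794 CPM), Ndufa9 (230 CPM), Pou6f1 (3.36 CPM), S1pr1 (33.1 CPM), Trat1 (21.0 CPM) and Vim (89.6 CPM). In the low set Aldh18a1 and Gpt2 are genes of amino acid metabolism, Hspa9 and Hspd1 encode mitochondrial chaperones, and Bdh2 is neither. The high set was mixed and held S1pr1, a gene of resting cells, beside the granzyme gene Gzmk and Vim. In most of these genes the WT replicate 2 value lay on the side of the KO-labelled libraries. Trat1 and Ndufa9 are exceptions.

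KO replicate 2 stood apart for Igj (81.4 CPM), Cd72 (12.0 CPM), Tlr13 (1.19 CPM), Cth (2.32 CPM) and Aldh18a1 (177 CPM). It also stood apart in the summed B cell (391 CPM), NK and CD8 T cell (171 CPM) and erythroid (161 CPM) markers, and WT replicate 2 in the B cell sum (73.1 CPM). KO replicate 1 was low for Nrp1 (24.7 CPM) and the noncoding transcript 4930506M07Rik (3.04 CPM). KO replicate 3 was low for Ndufa12 (67.2 CPM) and Slc6a9 (7.46 CPM). WT replicate 4 was high for Nrp1 (11.0 CPM) and, by a single count each, for Emr4, Igf1 and Slco2b1 (0.0599 CPM). WT replicate 1 was low for Il21 (1.87 CPM) and high for Tlr13 (0.117 CPM) and Tspan15 (0.0584 CPM), both near 0.

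Genotype effects that differed between CompA and stimulated cells without inhibitor numbered 2661, and between CompA and unstimulated cells 477, by interaction terms in edgeR. Against stimulated cells the differences were more positive with CompA for Slco2b1 (10.59 on the log2 scale), Emr4 (10.18), Tgfbi (9.72), Igf1 (9.39), Tlr13 (8.13), Tspan15 (7.69) and Itgb5 (7.11), all near 0 in WT with CompA, so that these sizes depend on the prior count. They were more positive, too, for Maf (3.06), Nt5e (2.60), Spock2 (2.39), Nrp1 (1.76) and 4930506M07Rik (1.57). They were more negative for Cth (-2.15), Slc6a9 (-1.45), Asns (-1.26), Pycr1 (-1.24), Gpt2 (-1.09) and Ccl1 (-0.97).

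Against unstimulated cells the differences were more positive with CompA for Tgfbi (6.04), Tlr13 (4.33), Tspan15 (4.29), Itgb5 (3.78), 4930506M07Rik (2.03) and Emp1 (1.70). They were more negative for Bdh2 (-4.01), Lag3 (-2.40), Ccl1 (-2.38), Eea1 (-2.33), Nr4a2 (-1.89), Wdfy1 (-1.49), Igsf3 (-1.39) and Nr4a3 (-1.29).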

How the results depend on the processing

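Of the 92 named genes called with CompA, 27 lost the call under at least 1 of 17 alternatives, and none changed direction. The 950 genes called became 769 with limma-voom, 1297 with DESeq2, 1066 with library totals and 765 with a fit of the CompA groups alone, and ranged from 549 to 1067 when a library was left out. The interaction with stimulated cells (2661 genes) ranged from 1774 to 3502 when a library was left out, the lowest without WT stimulated replicate 2 and the highest without WT stimulated replicate 1. The interaction with XCT790 (0 genes) became 2 with DESeq2 and ranged from 0 to 2 when a library was left out. The interaction with unstimulated cells (477 genes) became 759 with DESeq2 and ranged from 269 to 897 when a library was left out. It was 309, 766 and 294 without WT CompA replicates 1, 2 and 4, and 294 without KO unstimulated replicate 3. The cause of these shifts was not tested. Fewer samples entered each fit that left a library out.

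The library numbers fall into runs of 4 with 1 library of each condition. Deviations of the CompA libraries from their group mean correlated with those of the same run at 0.199 to 0.686 in KO-labelled libraries, where each library correlated best with its own run. In WT the correlations ran from -0.094 to 0.492, and each library correlated best with its own run only against XCT790, which is a hint from the data and not from the design. With the run as a random replicate block in limma-voom (consensus correlation 0.294), 852 genes differed with CompA. The interactions then numbered 4243 with stimulated cells, 2 with XCT790 and 1224 with unstimulated cells. Depth limited the low genes: Ccl17, Tgfbi, Igf1 and Emr4 had few counts in 1 or both CompA groups, so their fitted differences depend on the prior count.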
